A study of Homo sapiens with 22 samples.

Results

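CXCR4, ACKR3 and CXCL12 are a pair of chemokine receptors and the chemokine that both bind. The 3 genes were chosen by symbol out of the 25343 genes listed for every library, and each was listed in all 22 libraries. The libraries are of poly(A) RNA from cultured human renal cancer lines, made in a study of enhancers in metastasis, and they fall into 7 groups. The labels do not say that replicates came from separate cultures, so p-values measure only the spread between these libraries, which may be technical.

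The lines 786-O, 786-M1A and OS-LM1 gave 2 libraries each, and no treatment is labelled for them. From earlier work, 786-O comes from a clear cell renal carcinoma, 786-M1A is a metastatic derivative of 786-O selected in mice, and OS-LM1 is a metastatic derivative of a different renal cancer line. The other 4 groups are all 786-M1A cells with CRISPR interference (CRISPRi). Here a guide RNA brings a Cas9 that cannot cut, joined to a repressor, to a chosen site. SC, the control, had a guide without a target and 6 libraries. The guide iMAE-1.1 had 4 libraries, iMAE-1.2 had 4 and iMAE-126 had 2. The labels do not give the site or gene that an iMAE guide is aimed at, so the repression of its target could not be checked. No source used here gives the repressor, the promoter that drives it, or whether the cells are a clone or a pool. All groups were grown in RPMI with serum, with no other agent labelled.

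CXCL12 is secreted mostly by stromal and endothelial cells and attracts cells that carry CXCR4, a receptor that signals through inhibitory G proteins and is then phosphorylated and sorted for degradation. ACKR3 is an atypical receptor of the same ligand: it recruits arrestin, does not signal through G proteins in the usual way, and takes CXCL12 up from the medium. In clear cell renal carcinoma, loss of VHL keeps the hypoxia-inducible factors (HIF) active, and CXCR4 is a known HIF target that has been tied to metastasis.

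The promoters of the 2 members present in the RefSeq promoter table are shown because CXCR4 and CXCL12 went in opposite directions between 786-O and 786-M1A. Each runs 5′ to 3′ on the strand of its gene, from 250 bases before to 50 bases after the gene start, in build GRCh38.p14. The expression files were made on hg19, and no position from one build was used with the other. CXCR4 lies on chromosome 2 (chr2:136118100-136118399, minus strand, the first of its listed starts) and CXCL12 on chromosome 10 (chr10:44385048-44385347, minus strand). ACKR3 is named only. Capitals mark the HIF core, searched as ACGTG or GCGTG on both strands.
CXCR4 promoter: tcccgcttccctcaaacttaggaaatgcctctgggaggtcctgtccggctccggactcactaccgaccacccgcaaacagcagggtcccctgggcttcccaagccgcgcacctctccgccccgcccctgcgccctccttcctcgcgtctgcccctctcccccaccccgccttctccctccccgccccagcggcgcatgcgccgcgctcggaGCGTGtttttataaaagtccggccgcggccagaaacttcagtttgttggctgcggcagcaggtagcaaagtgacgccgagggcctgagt
CXCL12 promoter: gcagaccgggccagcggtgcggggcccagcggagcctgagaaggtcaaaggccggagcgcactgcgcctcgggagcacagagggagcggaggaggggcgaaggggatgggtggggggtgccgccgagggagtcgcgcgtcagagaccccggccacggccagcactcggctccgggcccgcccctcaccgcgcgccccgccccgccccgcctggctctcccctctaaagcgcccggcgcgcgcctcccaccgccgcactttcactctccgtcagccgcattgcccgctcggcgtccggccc

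The printed CXCR4 window, at the first start, held 1 HIF core (GCGTG, first base at -39 from the gene start) and the CXCL12 window held 0. A HIF core was found in 48.45% of the 35114 RefSeq promoters of 300 bases. At the other listed CXCR4 starts, the second window held 0 HIF cores and 14 CpG, and the third held 2 and 9. The NF-kB motif had 0 matches in either window, against 11.27% of all promoters. CpG dinucleotides numbered 27 in the printed CXCR4 window and 39 in the CXCL12 window, against a median of 14 over all promoters. These matches describe the letters of the windows and say nothing of binding in these cells.

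Total counts per library ran from 9062605 to 52706490, and 16940 to 18600 genes had a count. The CRISPRi libraries fell into 2 sets by the mean length of the genes that gave the reads: SC replicates 1 and 2 with both iMAE-126 libraries (3528 to 3716 bases), and the other 12 libraries (3264 to 3395 bases). Values within a set are given beside the CXCR4 and ACKR3 results of the comparisons with SC. Among markers, PAX8, a transcription factor of renal epithelium, had group means of 91.0 to 231.7 TPM (transcripts per 1e+06, a level scaled for gene length), while CA9, a HIF target of clear cell carcinoma, was at 31.1 TPM in OS-LM1 and at most 0.135 TPM in the other groups. Of 10 haematopoietic markers, 2 reached a mean of 1 TPM in any group, the macrophage-associated CD68 and LYZ, and the list summed to 28.6 to 98.8 TPM per library, highest in 786-M1A. The pan-leukocyte gene PTPRC was at 0 to 0.7 TPM, and CD3E was at 0 in all groups. Endothelial markers summed to 0.36 to 1.61 TPM and fibroblast markers to 0.2 to 3.77 TPM per library, the latter highest in 786-O.

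CXCR4 was scarce in every group and differed widely between groups. Levels in CPM are counts per 1e+06 of the scaled library total. In 786-M1A it had 133 and 107 counts, or 2.79 and 2.42 CPM. In OS-LM1 it had 82 and 95 counts, or 3.26 and 5.94 CPM. In 786-O it had 1 and 2 counts, or 0.0257 and 0.0484 CPM. Both metastatic lines thus lay above both libraries of 786-O, with no overlap. In these bulk samples, fewer cells with the transcript and less transcript per cell cannot be told apart.

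Among the CRISPRi groups, SC held the most CXCR4, with a lowest level of 0.587, a median of 0.947 and a highest of 1.53 CPM from 9 to 37 counts. The iMAE-1.1 libraries had 1, 1, 5 and 3 counts, or 0.0650, 0.0822, 0.319 and 0.135 CPM. The iMAE-1.2 libraries had 1, 3, 0 and 0 counts, or 0.107, 0.125, 0 and 0 CPM. All 10 libraries with an iMAE guide lay below the lowest SC library, counting the 2 libraries of iMAE-126 with 0 and 5 counts (0 and 0.135 CPM). In the 3 libraries with 0 counts the limit that this allows, 3 counts of the total, was 0.146 CPM for iMAE-126 replicate 1 and 0.170 and 0.202 CPM for iMAE-1.2 replicates 3 and 4. Intervals and limits of this kind cover counting error only. In the order of mean levels, OS-LM1, 786-M1A, SC and iMAE-1.1 followed each other without overlap, while iMAE-1.1, iMAE-126, iMAE-1.2 and 786-O each overlapped their neighbour. The order was the same in TPM.

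**Figure D1:**
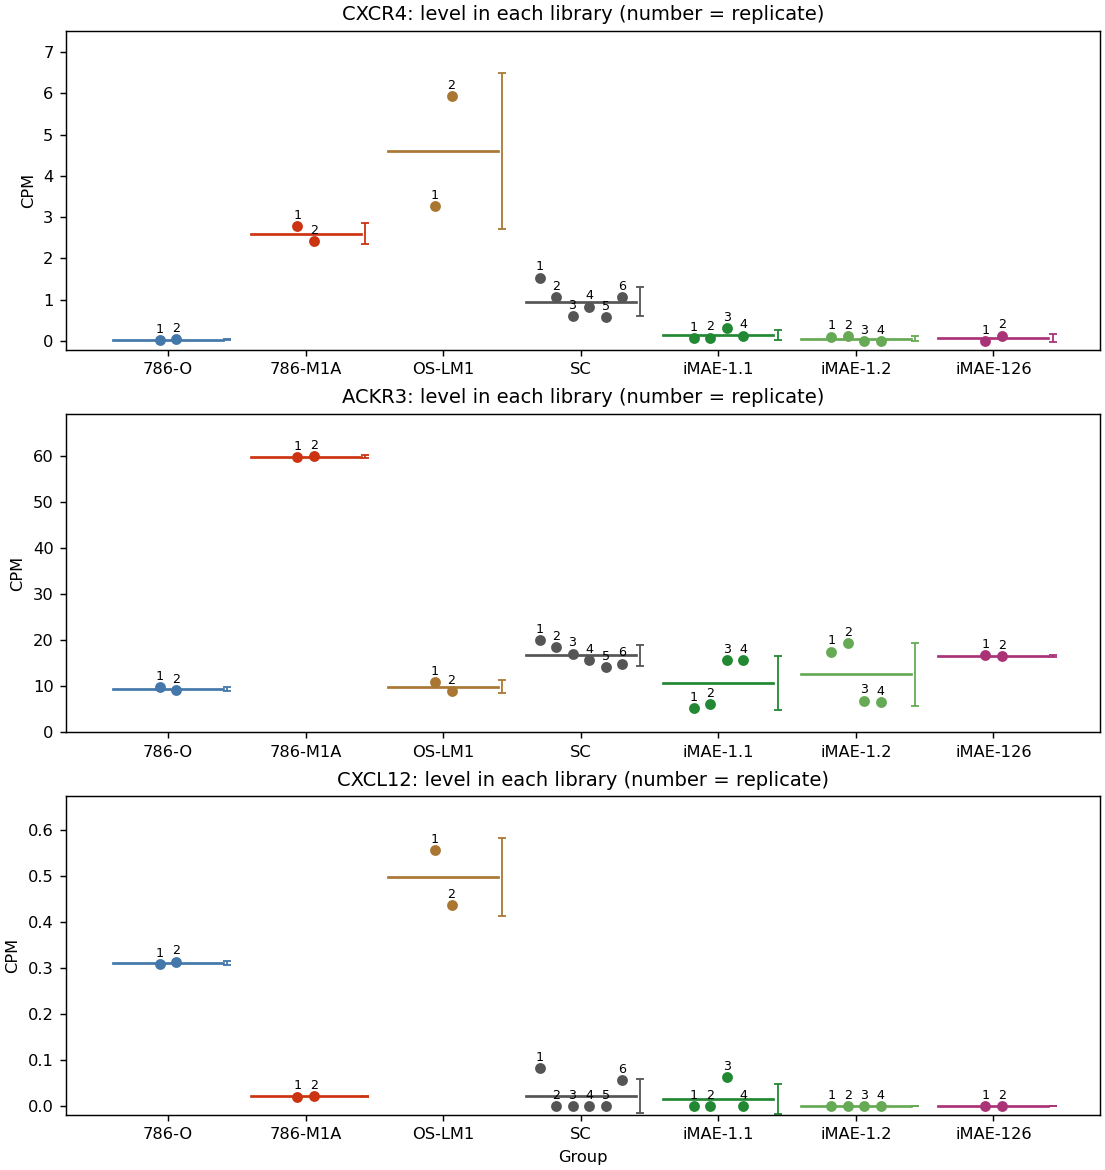
CPM of CXCR4, ACKR3 and CXCL12 (y axes, linear) in each library of the 7 groups (x axis); points are libraries numbered by replicate, horizontal lines group means and bars the SD. CXCR4 lay between 2.42 and 5.94 CPM in 786-M1A and OS-LM1 and at most at 0.319 CPM in 786-O and the iMAE groups, ACKR3 stood at 59.7 and 60.1 CPM in 786-M1A, and CXCL12 exceeded 0.1 CPM in 786-O and OS-LM1 alone.

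ACKR3 was detected in every library and was highest in 786-M1A. It had 59.7 and 60.1 CPM there, from 2850 and 2658 counts. It had 9.75 and 9.12 CPM in 786-O, and 10.9 and 8.88 CPM in OS-LM1. In contrast to CXCR4, the ACKR3 levels of OS-LM1 and 786-O overlapped. SC ran from 14.2 over a median of 16.3 to 20.1 CPM, and iMAE-126 was at 16.8 and 16.5 CPM, inside the range of all SC libraries. The SC libraries of the same set, replicates 1 and 2, were at 20.1 and 18.5 CPM, above both iMAE-126 libraries.

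The groups of the guides iMAE-1.1 and iMAE-1.2 were each split in ACKR3. The iMAE-1.1 libraries had 5.197, 6.16, 15.7 and 15.6 CPM, from 80, 75, 247 and 347 counts. The iMAE-1.2 libraries had 17.5, 19.3, 6.88 and 6.53 CPM, from 163, 462, 121 and 97 counts. Replicates 1 and 2 of iMAE-1.1 and replicates 3 and 4 of iMAE-1.2 lay below every SC library, and the other 4 lay within the range of all SC libraries. The SC libraries of the same set, replicates 3 to 6, ran from 14.2 to 17.1 CPM. Replicates 1 and 2 of iMAE-1.2 lay above that range, and replicates 3 and 4 of iMAE-1.1 within it. Over all genes, libraries of the guides deviated from their group means together along the same division. Pairs of replicate 1 or 2 of one guide with replicate 3 or 4 of the other correlated at r = 0.159 to 0.442 across genes (8 pairs), and the other 8 pairs at -0.425 to -0.188. Deviations from a group mean balance out within the group, so the positive and negative ranges are not independent of each other. These correlations are across genes, which are not independent replicates, and the part of this division in the levels was not tested. CXCR4 had 1, 1, 0 and 0 counts in the 4 libraries with low ACKR3 and 5, 3, 1 and 3 in the other 4. The labels do not account for the division, and each value given for either guide takes the labelled guide of every library as it stands. In mean CPM, 786-M1A came first without overlap, and SC, iMAE-126, iMAE-1.2, iMAE-1.1, OS-LM1 and 786-O followed with each neighbour overlapping. In TPM the lower places changed: iMAE-126 came before SC, 786-O moved ahead of both OS-LM1 and iMAE-1.2, and iMAE-1.1 was last.

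CXCL12, the ligand, was at or near 0 in most libraries, and 13 of 22 had no count of it. The 786-O libraries had 12 and 13 counts, or 0.309 and 0.315 CPM. The OS-LM1 libraries had 14 and 7 counts, or 0.557 and 0.438 CPM. The 786-M1A libraries had 1 count each, or 0.0210 and 0.0226 CPM. Among the CRISPRi libraries, SC replicates 1 and 6 had 2 and 1 counts, iMAE-1.1 replicate 3 had 1, and the other 13 had 0. OS-LM1 lay above 786-O, and 786-O above all 786-M1A cells, without overlap. Below these, SC, 786-M1A and the 3 iMAE groups overlapped. Of the fibroblast markers, genes of a cell type that secretes CXCL12, LUM alone was above 0.04 TPM in 786-O, at 3.33 to 3.68 TPM, and DCN was at 0 there. In OS-LM1, the other line with the ligand, LUM was at 0.07 to 0.11 TPM and DCN at 0.10 to 0.13 TPM. The part of other cells in the CXCL12 level was not tested.

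Set side by side per length, ACKR3 exceeded CXCR4 in 22 of 22 libraries. The ratio of ACKR3 TPM to CXCR4 TPM was 17.0 and 19.7 in 786-M1A and ran from 10.4 to 22.2 in SC. It was 2.69 and 1.197 in OS-LM1, the group where the receptors were nearest to each other, at 3.8 and 6.7 TPM for CXCR4 and 10.2 and 8.02 TPM for ACKR3. It was 265.2 and 142.6 in 786-O, 38.6 to 93.3 in iMAE-1.1, 129.1 and 125.2 in the iMAE-1.2 libraries with a CXCR4 count, and 98.6 in the iMAE-126 library with one. The high ratios rest on 1 to 5 CXCR4 counts a library. The submitters' length of CXCR4 also varied, from 1674 bases in most libraries to 1867 in SC replicate 6, so its TPM is not a pure rescaling of its counts.

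**Figure D2:**
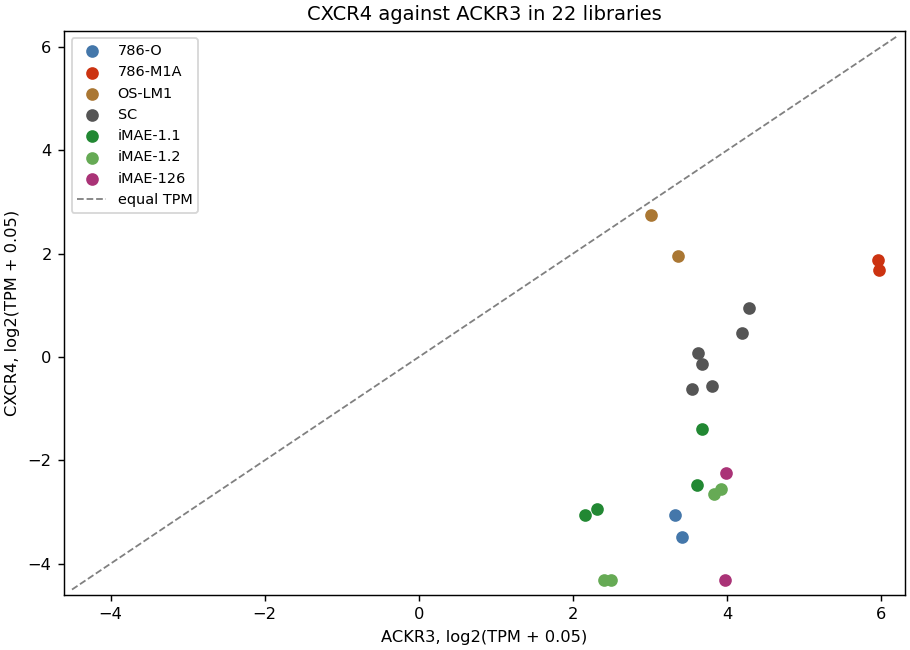
CXCR4 (y axis) against ACKR3 (x axis), both as log2(TPM + 0.05), with 1 point for each of the 22 libraries coloured by group; the dashed line marks equal TPM. All 22 points lie under the line, nearest to it in OS-LM1, and the points at the bottom are the 3 libraries with no CXCR4 count.

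The first comparison asks how the metastatic derivative differs from its parent line. In 786-M1A both receptors were higher than in 786-O and the ligand was lower. CXCR4 had 240 counts against 3, a ratio of 69.7 after scaling (95% exact counting interval 23.6 to 340.6), and its log2 fold change was 5.996 (SE 0.53, edgeR quasi-likelihood adjusted p = 0.000118). ACKR3 was 6.35-fold higher (log2 fold change 2.67, SE 0.13, adjusted p = 5.475e-06). CXCL12 had 2 counts against 25, 14.3 times lower after scaling (interval 3.58 to 124.9), with a log2 fold change of -3.64 (SE 0.72, adjusted p = 0.00614). In this comparison 31% of 16354 genes tested were called at an adjusted p under 0.05. Leaving out 786-M1A replicate 1 ended the CXCL12 call (adjusted p = 0.0526), and the fit then assumes that the lone library varies like the other groups.

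The second metastatic line shared the high CXCR4 of 786-M1A and lacked its high ACKR3. Against 786-O, CXCR4 in OS-LM1 had 177 counts to 3, a ratio of 115.1 (interval 38.7 to 563.3), with a log2 fold change of 6.71 (SE 0.53, edgeR adjusted p = 1.956e-05). ACKR3 differed from 786-O by less than its error (log2 fold change -0.00, SE 0.13, adjusted p = 0.994), and the sign of this value turned under other scalings. CXCL12 was at 0.50 against 0.31 mean CPM and did not pass the test (log2 fold change 0.61, SE 0.49, adjusted p = 0.3002). Of all genes, 63.6% were called between OS-LM1 and 786-O. The parental line of OS-LM1 is not among these libraries, so line of origin and metastatic selection cannot be told apart here.

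Against 786-M1A, ACKR3 in OS-LM1 was lower by 2.67 on the log2 scale (log2 fold change -2.67, SE 0.13, edgeR adjusted p = 1.349e-06). CXCL12 in OS-LM1 had 21 counts to 2, a ratio of 23.5 (interval 5.74 to 206.6), with a log2 fold change of 4.25 (SE 0.72, adjusted p = 0.000950). CXCR4 had a log2 fold change of 0.71 (SE 0.30) and did not pass the test (adjusted p = 0.0658), although the libraries did not overlap. Of all genes, 68.7% were called here, so a call alone does not set a member apart. Without OS-LM1 replicate 1, whose level was the nearer to 786-M1A, the CXCR4 difference was 1.08, and without OS-LM1 replicate 2 it was 0.26. Each fit assumes that the lone OS-LM1 library varies like the other groups, so a call there does not measure the spread of OS-LM1. OS-LM1 and 786-M1A come from different parental lines and are both metastatic derivatives, so this comparison does not contrast metastatic with parental cells.

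SC and untreated 786-M1A are the same line with and without CRISPRi, that is, the Cas9 joined to a repressor and a guide without a target. Both receptors were lower in SC. CXCR4 fell by 1.41 on the log2 scale (SE 0.33, edgeR adjusted p = 0.00830), from a mean of 2.60 to 0.950 CPM. ACKR3 fell by 1.82 (SE 0.13, adjusted p = 0.000265), a 3.54-fold difference between means of 59.9 and 16.7 CPM. All 6 SC libraries lay below both 786-M1A libraries in both receptors. CXCL12 had 3 counts in SC and 2 in 786-M1A, and an exact two-sided permutation test of its mean CPM gave no evidence of a difference (p = 1, smallest possible 0.0357). Of 14769 genes, 53% were called.

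Within the library sets of SC, the CXCR4 change against 786-M1A was -1.76 for SC replicates 3 to 6 (adjusted p = 1.309e-06) and -0.96 for replicates 1 and 2 (0.0257). For ACKR3 it was -1.99 (8.445e-21) and -1.62 (2.983e-07). The CXCR4 call was lost without 786-M1A replicate 1 (0.0709) or replicate 2 (0.0567), and the ACKR3 call was kept in all 8 fits that left out 1 library. The labels name no batch that holds both SC and untreated libraries, so the Cas9 with its repressor, the guide vector and the preparation of the libraries cannot be told apart.

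The CRISPRi comparisons ask what each iMAE guide changed relative to the non-targeting guide. They share the SC libraries, so their values are given side by side and are not independent. CXCR4 was lower with all 3 guides and passed the test with iMAE-1.2 and iMAE-126. With iMAE-1.1 it had 10 counts over 4 libraries against 100 over 6 SC libraries, 6.59 times lower after scaling (interval 3.44 to 14.2), and a log2 fold change of -2.62 (SE 0.59) that did not pass (edgeR adjusted p = 0.0634). With iMAE-1.2 it had 4 counts, 16.5 times lower (6.26 to 61.9), and fell by 3.86 (SE 0.69, adjusted p = 0.0218). With iMAE-126 it had 5 counts in 2 libraries, 11.6 times lower (4.82 to 36.6), and fell by 3.46 (SE 0.77, adjusted p = 0.00784).

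Against this, 0.452% of 15254 genes tested were called with iMAE-1.1, 0.721% with iMAE-1.2 and 15.5% with iMAE-126. With the library set as a term the CXCR4 changes were -2.31 (adjusted p = 0.0550), -3.55 (0.00958) and -3.88 (0.00297), and against the SC libraries of the same set -2.31 (0.0719), -3.55 (0.0150) and -3.89 (0.0131). The call with iMAE-1.2 was lost without its replicate 1 (0.0759), 3 (0.0659) or 4 (0.0835). The call with iMAE-126 was lost without its replicate 1 (0.0966) or 2 (0.0536). The guides iMAE-1.1 and iMAE-1.2 were also compared with each other, and CXCR4 had 4 counts against 10 with a log2 fold change of -1.25 (SE 0.92, adjusted p = 1), which ran from -2.34 without iMAE-1.2 replicate 2 to -0.67 without iMAE-1.1 replicate 3. In that comparison 0% of genes were called by edgeR, with 116 genes at an unadjusted p under 0.05 and 2 genes called by DESeq2.

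ACKR3 did not pass the test with any iMAE guide. Its log2 fold change was -0.64 with iMAE-1.1 (SE 0.34, edgeR adjusted p = 0.326), -0.42 with iMAE-1.2 (SE 0.34, 0.481) and -0.02 with iMAE-126 (SE 0.42, 0.980). The first 2 values average over the division of those groups into libraries near 6 CPM and libraries near 16 CPM described above. They moved with single libraries, from -0.89 to -0.41 and from -0.73 to -0.21. With the library set as a term, ACKR3 was -0.51 with iMAE-1.1 (edgeR adjusted p = 0.674), -0.30 with iMAE-1.2 (0.803) and -0.22 with iMAE-126 (0.825). Against the SC libraries of the same set, the values in this order were -0.51 (0.682), -0.30 (0.807) and -0.22 (0.857). The value for iMAE-126 changed sign with limma on TPM, at a minimum count of 50, and without SC replicate 1 or 2. It kept its sign with RLE factors and with DESeq2. For iMAE-1.2 against iMAE-1.1, ACKR3 differed by 0.22 (SE 0.37, adjusted p = 1).

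CXCL12 was left out of the edgeR fits of the CRISPRi libraries by the filter on low counts, and its mean CPM was compared by exact two-sided permutation tests. The p against SC was 0.786 for iMAE-126, 0.833 for iMAE-1.1 and 0.467 for iMAE-1.2, and it was 1 for iMAE-1.2 against iMAE-1.1. Without ties, the smallest p these designs allow is 0.00476 for 4 against 6 libraries, 0.0357 for 2 against 6 and 0.0286 for 4 against 4. Most of these libraries tied at 0 counts of CXCL12, which put 0.00476 and 0.0286 out of reach. Where one iMAE-1 guide was tested against the other, a single library, iMAE-1.1 replicate 3, had a count. Every split of those libraries gives the same p, so that test cannot show a difference. With 3 counts in all SC libraries, a fall of CXCL12 was not detectable at this depth.

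**Figure D3:**
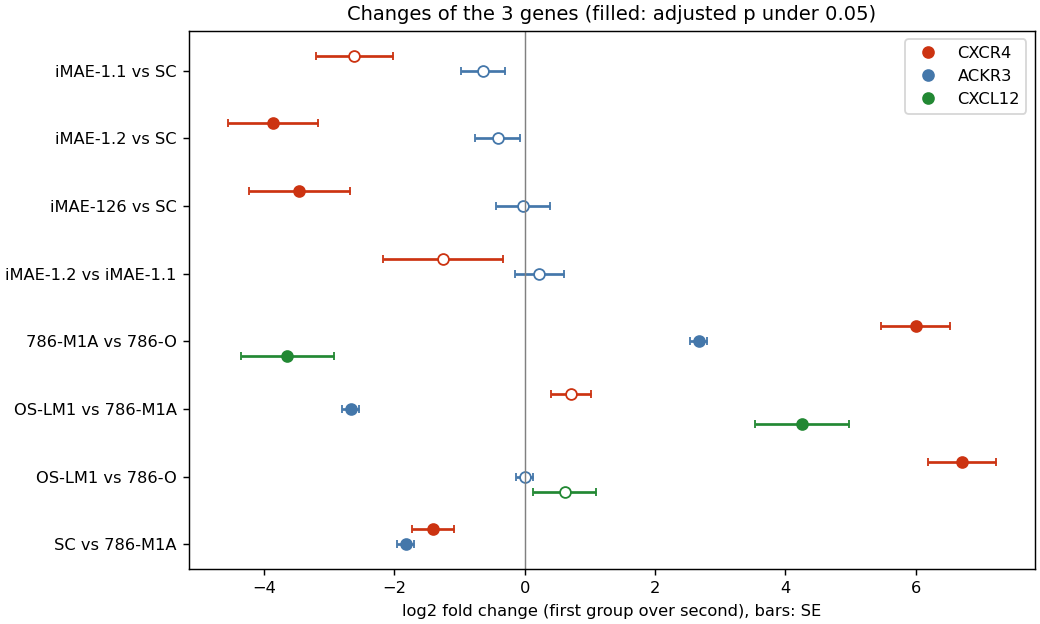
Log2 fold change (x axis; first group over second, with SE as bars) of CXCR4, ACKR3 and CXCL12 in the 8 comparisons (y axis), filled where the adjusted p was under 0.05. CXCR4 ranged from -3.86 with iMAE-1.2 to 6.71 in OS-LM1 against 786-O, ACKR3 was filled in 3 comparisons, all with 786-M1A, and CXCL12 has a value only where it passed the count filter.

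Around the 3 genes, 59 other genes of CXCL12 signalling were grouped by role. Between 786-M1A and 786-O, 50 of them were tested, 14 were higher and 6 lower (40% called, against 31% of all genes). The median log2 fold change was 0.16, against -0.02 over all genes. Of the other ligands and receptors, ADM, a peptide that ACKR3 also binds, was higher by 0.80 (edgeR adjusted p = 0.00104), and CD74, the receptor of the cytokine MIF with CXCR4, was lower (-3.54, adjusted p = 8.506e-06). Of the proteases that trim CXCL12, MMP2 was higher by 4.33 (3.584e-07) and DPP4, which inactivates the ligand, was lower (-0.92, 0.00613). Among the proteins that phosphorylate and desensitise receptors, the kinase GRK5 was higher by 1.57 (0.000379) and the arrestin ARRB2 was lower (-1.54, 0.000139). Of the HIF subunits, EPAS1 was higher by 0.62 (0.0181) and HIF1A lower (-0.96, 0.000564). EPAS1 was not called in any of the 4 fits that left out 1 library (0.0978 to 0.133), nor DPP4 without 786-M1A replicate 1 (0.0664) or 786-O replicate 1 (0.0517) or 2 (0.0507). The count of called genes was 11 without 786-M1A replicate 1 or 786-O replicate 2, and 13 without either of the other 2, and over all genes it was 2259 to 2551 in these fits in place of 5064.

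For the 5 called genes of the list named next, OS-LM1 lay on the same side of 786-M1A as 786-O did. Against 786-M1A, 14 genes were higher and 25 lower of 50 tested (78%, against 68.7% of all genes), with a median of -0.39 against 0.04. CD74 was higher by 6.10 (edgeR adjusted p = 1.460e-07), HIF1A by 2.77 (6.768e-07), ARRB2 by 2.72 (1.924e-06) and DPP4 by 0.74 (0.00644), while MMP2 was lower (-3.11, 2.107e-07). EPAS1 had a value of -0.39 close to the threshold (0.0527), and it was called in 7 of 12 alternatives, among them DESeq2 (0.0346) and no filter (0.0107). These 7 include the fits without OS-LM1 replicate 1 (-0.67) or 2 (-0.16). Such a fit assumes that the lone OS-LM1 library varies like the other groups, so its call does not measure the spread of OS-LM1. The DPP4 call was lost without 786-M1A replicate 1 (0.0570). Against 786-O, 19 were higher and 18 lower (74%, against 63.6%), with a median of -0.06 against -0.01. CD74 (2.56), HIF1A (1.81), the syndecan SDC4, a co-receptor that binds CXCL12 (1.80), and ARRB2 (1.18) were higher there, and ARRB1, the other arrestin, was lower (-1.85), with edgeR adjusted p of 4.468e-06 to 0.000130 over these 5. DPP4 (-0.18, adjusted p = 0.411) and EPAS1 (0.23, 0.227) did not pass. Both values rested on the OS-LM1 libraries: DPP4 was -0.52 without OS-LM1 replicate 1 and 0.0956 without replicate 2, and EPAS1 was -0.0511 and 0.46.

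Between SC and 786-M1A, where both receptors fell, 48 genes of the list were tested, 9 were higher and 21 lower (62.5%, against 53% of all genes). The median was -0.38 against 0.07. CD74 was higher by 2.26 (edgeR adjusted p = 0.00300), MIF by 1.27 (0.00861) and ARRB2 by 0.58 (0.0365). EPAS1 fell by 1.58 (0.0121). DPP4 (-0.30, 0.288) and HIF1A (0.10, 0.563) did not pass. DPP4 was called against SC replicates 3 to 6 alone (-0.60, 8.587e-10) and without SC replicate 2 (-0.47, 0.0495), and was 0.0985 (0.348) against SC replicates 1 and 2. Without 786-M1A replicate 1 the calls of EPAS1 (0.0667), MIF (0.0587) and ARRB2 (0.0984) were lost, as they were without 786-M1A replicate 2 (0.0761, 0.0843 and 0.248). ARRB2 was also lost without any 1 of SC replicates 3 to 6 (0.0585 to 0.0764). The list then had 12 and 8 called genes without these 786-M1A libraries, where 3035 and 1999 of all genes were called in place of 7832. On the TPM scale the median of all genes moved to -0.21, and the list had 4 higher and 26 lower genes.

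With the iMAE guides, few genes of the list moved. With iMAE-1.1, 1 of 48 was called (2.08%, against 0.452%), and with iMAE-1.2, 2 were higher and 1 lower (6.25%, against 0.721%). The list medians were 0.02 and -0.04, against -0.00 and 0.00 over all genes. With the library set as a term, 5 genes of the list were called with iMAE-1.1 (273 over all genes) and 3 with iMAE-1.2 (417). Against SC replicates 3 to 6 alone, these counts were 3 (236) and 3 (383). ADM, another ligand of ACKR3, was higher with both, by 0.60 (edgeR adjusted p = 0.0152) and 0.58 (0.0195), at means of 81.0 and 79.3 CPM against 53.2 in SC. With iMAE-1.2 the protease MMP14 was lower (-0.50, 0.0494) and the adhesion adaptor PXN higher (0.33, 0.0468). ADM was not called without iMAE-1.1 replicate 4 (0.0690), or without iMAE-1.2 replicate 1 (0.0834) or 2 (0.0623). It was also not called with limma on TPM (0.0842 to 0.0955), with a replicate block (0.0959 and 0.0941) or, for iMAE-1.2, in the compared groups alone (0.0988), and on the TPM scale 0 genes of the list were called with either guide. MMP14 was lost in 9 of the 10 fits that left out 1 library, SC replicate 5 being the exception (0.0536 to 0.165 in the others), and PXN in all 10 (0.0504 to 0.164). For iMAE-1.2 against iMAE-1.1, none of the 48 was called (median -0.02), of the 0% of all genes given above.

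With iMAE-126, 1 gene of the list was higher and 4 were lower of 48 (10.4%, against 15.5% of all genes), with a median of -0.03 against -0.00. DPP4 was higher by 0.73 (edgeR adjusted p = 0.0281). GRK5 (-0.73, 0.0412), SDC4 (-0.47, 0.00438) and STAM, a sorting adaptor of the CXCR4 endosome (-0.40, 0.0348), were lower. All 4 calls were lost without iMAE-126 replicate 1 (0.0815 to 0.379) or replicate 2 (0.0670 to 0.209). GRK5 was also lost without SC replicates 3 to 6 in turn (0.0651 to 0.0734), STAM without SC replicates 3, 4 or 6 (0.0527 to 0.0761) and DPP4 without SC replicates 3 or 5 (0.0505 and 0.0518). The list had 0 called genes without either iMAE-126 library (151 and 161 over all genes, in place of 2357), but 14 and 16 without SC replicate 1 or 2 (3753 and 3851) and 1 to 3 without another SC library (1554 to 1757). With the library set as a term DPP4 and GRK5 were not called, and the list had 8 called genes (2550 over all genes). Against SC replicates 1 and 2 alone, DPP4, GRK5 and STAM (edgeR adjusted p = 0.0525) were not called, and the list had 7 (1726). On the TPM scale 2 genes of the list were higher and 0 lower.

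**Figure D4:**
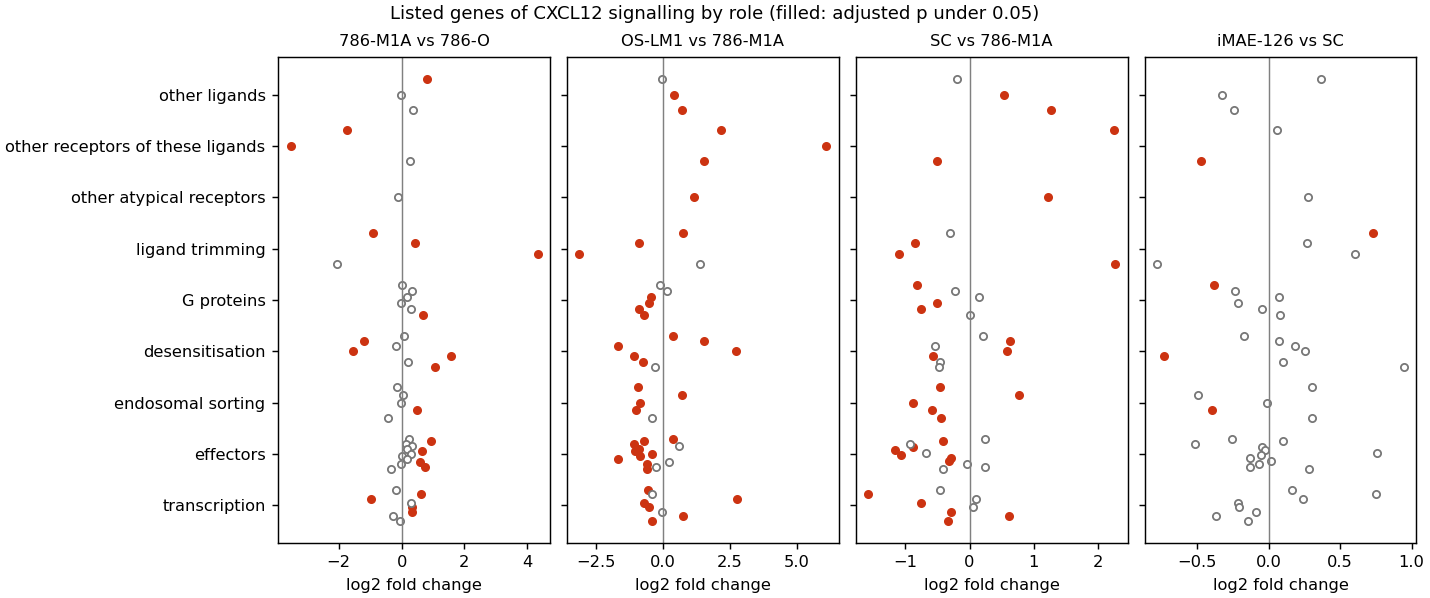
Log2 fold change (x axis, first group over second, with a separate scale in each panel) of the tested genes of CXCL12 signalling by role (y axis) in 4 comparisons; each point is 1 gene, filled where the adjusted p was under 0.05. In 786-M1A against 786-O 14 filled points lie to the right and 6 to the left, in OS-LM1 against 786-M1A 14 and 25, in SC against 786-M1A 9 and 21, and in iMAE-126 against SC 1 and 4.

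Most other chemokine receptors were scarce. Of 21 listed, 2 to 5 reached a mean of 1 TPM in any group, and 8 to 11 were at 0. CCR6, the receptor of CCL20, reached it in all 7 groups and was highest in OS-LM1, at 13.6 and 16.5 TPM, above ACKR3 there, with means of 1.13 to 2.29 TPM elsewhere. The others that reached it in some group were CCRL2, ACKR2, CXCR2 and CCR10. CXCL11 and CXCR3, the other chemokine ligand of ACKR3 and the other receptor of that ligand, did not pass the filter in any comparison.

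As a description, the genes whose log2 CPM (with 0.5 added) followed each member most closely over the 22 libraries were listed among 14934 candidates (14935 for CXCL12). The libraries share groups, lines and depth, and no p is given. For CXCR4 they were LEPREL1 (r = 0.904), FHL2 (0.901), JPH2 (0.886), PDE4A (0.874) and C8orf46 (0.874), all highest in OS-LM1. For ACKR3 they were LTBP1 (0.930), PLXNA2 (0.923), CIZ1 (0.912), LPPR2 (0.868) and C19orf10 (0.859), all highest in 786-M1A. LTBP1, which binds latent TGF-beta in the matrix, ran at 37.6 and 38.5 CPM in 786-M1A, 1.60 and 1.65 CPM in 786-O and 4.19 and 5.93 CPM in OS-LM1. For CXCL12 they included JPH1 (0.980), TNK1 (0.973), TMEM98 (0.972) and CEBPA (0.968), each highest in OS-LM1 by group mean, with CEBPA overlapping 786-O. TMEM98 shows the pattern most plainly, at 68.2 and 69.6 CPM in OS-LM1, 6.80 and 7.26 CPM in 786-O, 0.0210 and 0.0226 CPM in 786-M1A and 0 in every CRISPRi library. Over the 7 group means the correlations were 0.948 to 0.964 for the CXCR4 list, 0.920 to 0.969 for the ACKR3 list and 0.978 to 0.997 for the CXCL12 list.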

How the data were processed

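RNA of 22 libraries in 7 groups was read from the deposited gene tables, 1 per library, and groups were taken from the sample titles. Per the submitters' processing notes, reads were handled with Bowtie2 and RSEM on hg19. Their versions and strand setting were not given in the sources used here, so reads of antisense partners may not be told apart, although the kit marks strand per the labels' protocols. Per the file headers, the deposited expected counts are RSEM estimates of the reads of each gene, fractional for reads that fit several genes. The TPM that the authors deposited beside them come from the same RSEM run and scale each count by an effective length, per the file headers. Between 27.2% and 31.2% of the expected counts of a library were not whole.

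The quasi-likelihood test of edgeR 4.0.16 (R 4.3.3) was run on the rounded expected counts, with robust dispersions, TMM scaling and filterByExpr (minimum count 10). Genes were called at a Benjamini-Hochberg p under 0.05 over all genes tested. Separate fits held the 16 CRISPRi libraries, the 6 untreated libraries, and SC with 786-M1A (3 fits). Each SE is the log2 fold change over the root of its F. CPM are counts per 1e+06 of the library total times its TMM factor over all 22 libraries. Ratios have exact 95% conditional Poisson intervals. CXCL12 was compared by exact permutation where the filter left it out. The library set is inferred from the largest gap in the mean gene length of reads. No file repeated another: between replicates the chi-square per gene averaged 2.24 to 87.1, more than counting noise gives. The highest values, 61.2 to 87.1, were all between SC libraries of different sets, and SC libraries of the same set gave 2.24 to 8.94.

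In each comparison the named genes were CXCR4, ACKR3 and CXCL12, up to 4 called genes of the signalling list with the largest change and at least 5 CPM, and EPAS1, HIF1A, DPP4 and ARRB2 where measured; in the CRISPRi comparisons these 4 are named where called. Other chemokine receptors were named at 1 TPM, and the 5 genes most like each member by Pearson r. A few genes that these rules name are not reported here. The 3 genes, the lists and the tests were chosen with earlier results of these data known. Alternatives were DESeq2 1.42.0, RLE factors, a minimum count of 50 or none, limma 3.58.1 on log2(TPM + 1) and log2(TPM + 0.1), a replicate block, compared groups alone, library set, SC subsets and each library left out. Other tools were numpy 2.4.6, pandas 2.3.3 and matplotlib 3.10.9 under Python 3.11.15.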

Additional observations from a re-analysis of the deposited data

Results flagged for a closer look

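In the group of the guide iMAE-1.1, CXCL12 stood at 0.0637 CPM in replicate 3 and at 0 in the other 3 libraries, and this single library far from the rest of its group is why it is listed. The level is 1 count. It was 1 of 8 groups of 4 or more libraries examined for the 3 genes. With 0 counts in the other 3 libraries, any single count would be listed in this way, so the rate of about 1 in 20 groups expected by chance does not apply.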

How the results depend on the processing

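The counts limit CXCR4 and CXCL12, which had at most 5 and 1 counts in any library with an iMAE guide. CXCR4 kept its direction under every alternative run for every comparison, and the calls that changed follow. With limma on log2(TPM + 1) CXCR4 with iMAE-1.1 passed (-0.80, adjusted p = 0.0424). At a minimum count of 50 the difference of CXCR4 between OS-LM1 and 786-M1A passed (0.80, 0.0487). With 1 library left out, CXCR4 ran from -4.95 to -3.46 with iMAE-1.2, from -7.03 (the remaining iMAE-126 library had 0 counts, so this value is no bound) to -2.79 with iMAE-126, from -2.34 to -0.67 in iMAE-1.2 against iMAE-1.1, from 0.26 to 1.08 in OS-LM1 against 786-M1A and from -1.66 to -1.31 in SC against 786-M1A. CXCL12 in 786-M1A against 786-O ran from -3.67 to -3.58. Why these calls changed was not tested, apart from the smaller number of libraries.

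For the 2 iMAE-1 guides the replicate numbers did not pair the libraries: same-numbered libraries deviated in opposite ways (r = -0.398 to -0.232 across genes, 4 pairs). Deviations were taken from group means, so these values are tied to those of the other pairs. Same-numbered libraries of SC correlated at -0.077 to 0.14 with iMAE-1.1, -0.129 to -0.041 with iMAE-1.2 and -0.117 to 0.081 with iMAE-126. With the replicate number as a block, CXCR4 was not called with iMAE-1.2 (-3.99, adjusted p = 0.0941) or iMAE-126 (-3.83, 0.0825), and 2, 2 and 61 genes were called, in place of 69 with iMAE-1.1, 110 with iMAE-1.2 and 2357 with iMAE-126. The block changed no other call of the 3 genes.

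Some values that were not called in the report changed sign, and a few of these were called under an alternative. ACKR3 with iMAE-126 was 0.0043 at a minimum count of 50, 0.11 and 0.12 with limma on log2(TPM + 1) and log2(TPM + 0.1), and -0.0613 to 0.0425 with 1 library left out. ACKR3 in OS-LM1 against 786-O was 0.0359 with RLE factors, 0.0636 at a minimum count of 50, 0.0260 with DESeq2, 0.0242 in the compared groups alone, and -0.20 to 0.15 with 1 library left out. ACKR3 in iMAE-1.2 against iMAE-1.1 was -0.10 to 0.47 with 1 library left out. The difference of mean CXCL12 CPM was -0.0232 to 0.00465 with iMAE-1.1, -0.0212 to 0 in iMAE-1.2 against iMAE-1.1, and -0.0105 to 0.00609 in SC against 786-M1A. DPP4 in SC against 786-M1A was 0.10 with the replicate block and 0.0985 against SC replicates 1 and 2, and HIF1A was -0.0040 without a filter and -0.14 and -0.17 with limma on log2(TPM + 1) and log2(TPM + 0.1). In OS-LM1 against 786-O, DPP4 was -0.52 to 0.0956 and EPAS1 -0.0511 to 0.458 with 1 library left out. Both were called there only where a lone OS-LM1 library was left, which does not measure the spread of OS-LM1.

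Counts of called genes moved with the setting. Over the alternatives other than those with 1 library left out, they ran from 2 to 426 with iMAE-1.1 and from 2 to 660 with iMAE-1.2. The highest count with both guides came from DESeq2. They ran from 61 to 2987 with iMAE-126 and from 4213 to 8733 in 786-M1A against 786-O, the highest in the compared groups alone. In SC against 786-M1A they ran from 6824 to 11543, the highest with SC replicates 3 to 6 alone. With 1 library left out they ran from 16 to 60, 11 to 103, 151 to 3851, 2259 to 2551 and 1999 to 9085 in the same order. The TPM scale moved the split of higher and lower calls, from 54 and 56 to 23 and 81 with iMAE-1.2, from 947 and 1410 to 1013 and 685 with iMAE-126, from 5625 and 5607 to 4490 and 5935 in OS-LM1 against 786-M1A, from 4965 and 5440 to 3795 and 6251 in OS-LM1 against 786-O, and from 4100 and 3732 to 2314 and 4952 in SC against 786-M1A. At a minimum count of 50, CXCR4 had no value in the CRISPRi comparisons or in SC against 786-M1A, and CXCL12 had none in the lines, where limma on TPM gave none either. DESeq2 gave no adjusted p for CXCR4 with iMAE-1.1, and the compared groups alone gave no CXCR4 value for iMAE-1.2 against iMAE-1.1.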
